A study of Mus musculus with 6 samples.

Results

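Transcripts of the proteasome were followed in erythrocytes of male BalB/c mice, 3 with 1 copy of the Nxf1 allele C587R (Nxf1+/C587R, called mutants here) and 3 wild-type littermates (Nxf1+/+). The Nxf1 protein carries messenger RNA out of the nucleus. Red cells from heart blood of single mice were pelleted through Ficoll and their polyadenylated RNA was sequenced, 1 library per mouse, with 1 mutant and 1 wild-type library in each of 3 numbered batches. The age of the mice is not given in the sources used here. The 37 proteasome genes, of 27179 genes listed, were taken by symbol: 14 genes of the 20S core, 18 of the 19S cap, and 5 genes of activators and an inhibitor. All 37 had at least 1 count.

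The proteasome is the main protease for ubiquitin-tagged proteins. Its 20S core is a barrel of stacked alpha and beta rings with the active sites inside, and the 19S cap recognises ubiquitin, unfolds the substrate with a ring of ATPases and feeds it into the core. Other activators (PA28 and PA200) can dock on the core without ATP. Reticulocytes, the youngest red cells in blood, have no nucleus, live on messenger RNA made earlier and use ubiquitin and the proteasome to clear proteins as they mature, and reticulocyte lysate is the material in which this pathway was worked out.

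The abundance of these transcripts was very uneven. Psme3, which encodes PA28-gamma, an activator known mainly from cell nuclei, had 3677, 3565 and 3786 counts in the mutants against 4268, 3786 and 4405 in wild type. Psmf1, which encodes PI31, a proteasome-binding protein first described as an inhibitor of the core, had 1022, 1165 and 1213 counts in the mutants against 1444, 1620 and 1493 in wild type. Psmd4, which encodes the cap's ubiquitin receptor Rpn10, had 85, 102 and 136 counts in the mutants against 182, 227 and 266 in wild type. These 3 genes held 14751 of the 15265 counts of all members in the mutants against 17691 of 18458 in wild type. The other 34 genes shared 514 and 767 counts, and 19 members stayed under 10 counts in every library.

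Psme3 (Entrez gene 19192) lies on chromosome 11 at 101316213 to 101323537, Psmf1 (228769) on chromosome 2 at 151716062 to 151744199 and Psmd4 (19185) on chromosome 3 at 95032688 to 95042614 in GRCm38 (mm10), by RefSeq. No exon of another GENCODE M21 gene overlapped the exons of these 3 genes or of Psme4. The 250 bases before the annotated RefSeq start of each (GRCm38.p6) are shown because these 3 genes stand apart in level, with that of Psmb5, a catalytic core subunit at the low end, for comparison. The Psmf1 window lies before a start within the annotated gene, in an intron of 1 longer GENCODE M21 transcript. Capitals mark matches, on either strand, to TGACNNNGC (the core of the site through which Nfe2l1 is known to raise proteasome genes), AGATAA (a site of the erythroid factor Gata1) or CCNCNCCC (a site of KLF-family factors), and no 2 of the marked matches overlap.
Psme3, chr11:101315963-101316212, plus strand: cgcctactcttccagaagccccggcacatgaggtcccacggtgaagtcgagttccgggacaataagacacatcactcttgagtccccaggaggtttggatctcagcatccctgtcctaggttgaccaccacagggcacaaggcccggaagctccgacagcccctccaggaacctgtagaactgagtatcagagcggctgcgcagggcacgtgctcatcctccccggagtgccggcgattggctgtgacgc
Psmf1, chr2:151741311-151741560, minus strand: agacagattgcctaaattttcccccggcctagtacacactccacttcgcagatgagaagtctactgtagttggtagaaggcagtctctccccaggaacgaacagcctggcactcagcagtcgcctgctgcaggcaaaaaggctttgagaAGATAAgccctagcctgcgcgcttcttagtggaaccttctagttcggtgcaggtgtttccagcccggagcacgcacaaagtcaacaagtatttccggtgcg
Psmd4, chr3:95042615-95042864, minus strand: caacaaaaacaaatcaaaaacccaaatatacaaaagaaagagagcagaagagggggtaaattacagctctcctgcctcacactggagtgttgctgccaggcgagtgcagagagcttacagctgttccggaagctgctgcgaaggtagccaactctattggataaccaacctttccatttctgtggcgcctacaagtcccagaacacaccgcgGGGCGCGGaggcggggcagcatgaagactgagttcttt
Psmb5, chr14:54617996-54618245, minus strand: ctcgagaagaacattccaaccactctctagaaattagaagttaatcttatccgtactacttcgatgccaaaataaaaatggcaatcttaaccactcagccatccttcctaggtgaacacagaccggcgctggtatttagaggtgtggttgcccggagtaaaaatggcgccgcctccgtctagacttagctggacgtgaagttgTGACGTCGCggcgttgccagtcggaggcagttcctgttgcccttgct

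The Psme3 window held none of the 3 motifs, that of Psmf1 held 1 AGATAA and that of Psmd4 held 1 match to CCNCNCCC. The Psmb5 window held 1 TGACNNNGC match. Windows not of the set length and those of 1 chromosome were left out before counting. RefSeq windows were then at hand for 31 of the 37 members, as 34 windows. TGACNNNGC was in 5 of the 34 (14.7%) and in 10.2% of the 32851 windows kept, AGATAA in 1 of 34 (2.94%) and 9.99%, and CCNCNCCC in 14 of 34 (41.2%) and 45.9%. These are matches of letters and say nothing of binding.

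Levels of different genes were set side by side per length, as counts per kilobase of the gene length in the files scaled to the library's total count (RPKM). Psme3 was at 93.5 ± 4.82 RPKM in the mutants against 103 ± 4.43 in wild type (SD, n = 3 each), the 59th and the 62nd highest mean of all 27179 genes. Psmf1 followed at 21.3 ± 2.20 and 28.0 ± 2.65 RPKM, and Psmd4 at 5.75 ± 1.51 and 11.7 ± 2.10. The ranges over the 6 libraries did not touch, with Psme3 at 89.2 to 106, Psmf1 at no more than 31.1 and Psmd4 at 4.47 to 13.5, below every Psmf1 value. Below them no library had a member above 1.63 RPKM, and the next genes, Psmb4, Psme1, Psmb1 and Psmd8, overlapped in their ranges. Averaged over the libraries, Psme3 stood 392-fold above the median gene of the 20S core and 478-fold above that of the 19S cap in RPKM.

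**Figure D1:**
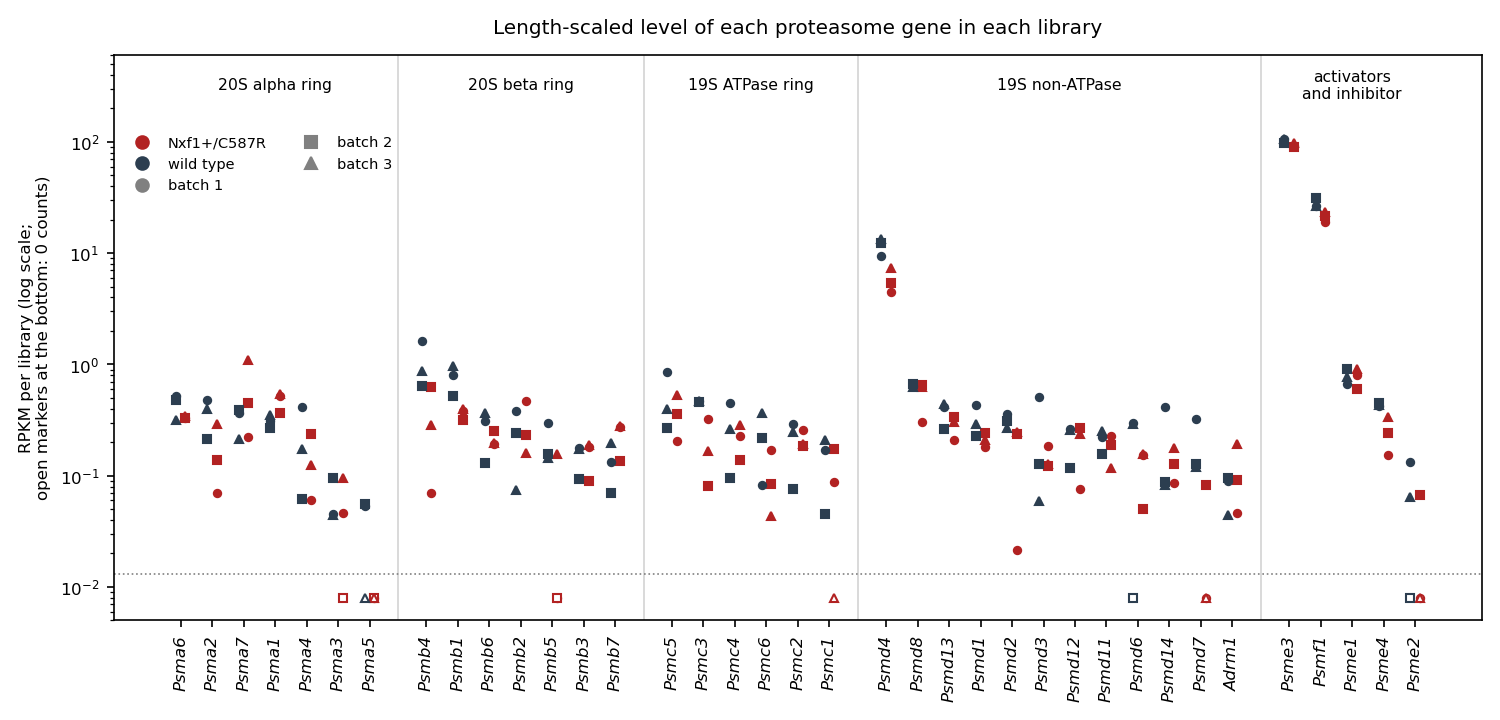
RPKM of the 37 proteasome genes (horizontal axis, grouped by part of the complex) in each of the 6 libraries, on a log axis, coloured by genotype and with 1 marker shape per batch; open markers below the dotted line are libraries with 0 counts. Psme3, Psmf1 and Psmd4 lie apart from the other 34 genes, which stay at or below 1.63 RPKM.

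The 20S core genes were all low. In the alpha ring, whose subunits form the gate of the barrel, Psma7 had 3, 6 and 14 counts in the mutants against 5, 5 and 3 in wild type. Psma1 had 10, 7 and 10 against 6, 5 and 7, and Psma6 5, 5 and 5 against 8, 7 and 5. Psma5, the lowest member, had 0 counts in every mutant library and 1, 1 and 0 in wild type. A count of 0 allows up to 3 counts, or 0.190 to 0.205 CPM (counts scaled to the total count of the library), so nothing can be said of a difference in Psma5. The 7 alpha genes together had 21, 24 and 37 counts in the mutants against 35, 24 and 25 in wild type. Their summed level overlapped on total counts (1.83 ± 0.613 and 1.82 ± 0.377 CPM). With TMM, a scaling by the ratios of most genes, it did not, at 1.92, 2.02 and 2.39 CPM in the mutants against 1.84, 1.46 and 1.29. The margin was narrow, 1.92 in mutant library 1 against 1.84 in wild-type library 1, on sums of 21 and 35 counts. The scaling thus decides whether the groups overlap.

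In the beta ring, which carries the proteolytic sites, Psmb4, a structural subunit, had 1, 9 and 4 counts in the mutants against 24, 9 and 13 in wild type. Psmb1 had 6, 5 and 6 against 13, 8 and 16, and Psmb2 6, 3 and 2 against 5, 3 and 1. Psmb4 and Psmb1 did not overlap between the groups in RPKM, where 12.5% of all genes with a count were lower in the mutants without overlap, and Psmb4 did so in batch 2 by a narrow margin (0.622 against 0.645 RPKM). With TMM both overlapped, as did Psmb2 in RPKM. Of the catalytic subunits, Psmb5, the chymotrypsin-like one, was lowest in the ring with 0, 0 and 2 against 4, 2 and 2 counts. Psmb6, the caspase-like one, had 3, 4 and 3 against 5, 2 and 6, and Psmb7, the trypsin-like one, 4, 2 and 4 against 2, 1 and 3. The 7 beta genes together had 22, 24 and 23 counts in the mutants against 55, 26 and 43 in wild type, or 1.53 ± 0.0709 and 2.68 ± 0.892 CPM of total counts (SD, n = 3 each), with every mutant library below every wild-type one. With TMM the beta ring was at 2.01, 2.02 and 1.48 CPM in the mutants against 2.89, 1.59 and 2.22, which overlap, so the scaling decides this difference. By symbol RefSeq names 6 pseudogenes, of Psma5, Psmb5, Psmb6 and Psmb7, and none has a row of its own in the counts. Copies under other names were not searched for. How reads shared with such copies were counted is not given in the sources used here, so the counts of at least these 4 genes are uncertain.

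In the 19S cap, the 6 ATPase genes together had 30, 23 and 26 counts in the mutants against 53, 26 and 47 in wild type. Psmc5 had 4, 7 and 10 against 17, 5 and 8, Psmc3 8, 2 and 4 against 12, 11 and 12, Psmc4 5, 3 and 6 against 10, 2 and 6, and Psmc1, the lowest of the ring, 2, 4 and 0 against 4, 1 and 5. Only Psmc3 among these 4 did not overlap in RPKM, and with TMM it overlapped too (0.733, 0.168 and 0.258 CPM against 0.630, 0.671 and 0.618). Among the 12 genes of the cap outside the ring, Psmd4 stood far above the next, Psmd8 (0.529 ± 0.194 and 0.647 ± 0.0239 RPKM, SD, n = 3 each). Psmd8, of the lid, had 7, 15 and 14 counts in the mutants against 15, 15 and 15 in wild type. Psmd13, also of the lid, had 5, 8 and 7 against 10, 6 and 11, and Psmd2, a scaffold of the base, 1, 11 and 11 against 17, 14 and 13. Psmd14, the enzyme that removes ubiquitin from substrates, had 2, 3 and 4 against 10, 2 and 2. Adrm1, another ubiquitin receptor, was lowest of these 12 genes with 1, 2 and 4 against 2, 2 and 1.

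The activators and the inhibitor spanned a wider range than the cap, from 0.0440 to 98.4 RPKM in their means over the libraries against 0.0932 to 8.73 RPKM. Psme1 and Psme2 encode the partner subunits of PA28-alpha/beta, which is induced by interferon gamma. Psme1 had 12, 9 and 13 counts in the mutants against 10, 13 and 12 in wild type, at 0.774 ± 0.155 and 0.781 ± 0.122 RPKM (SD, n = 3 each). Psme2 had 0, 1 and 0 against 2, 0 and 1. Psme4, which encodes PA200, had 15, 24 and 32 against 42, 43 and 44, with every mutant library below every wild-type one.

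**Figure D2:**
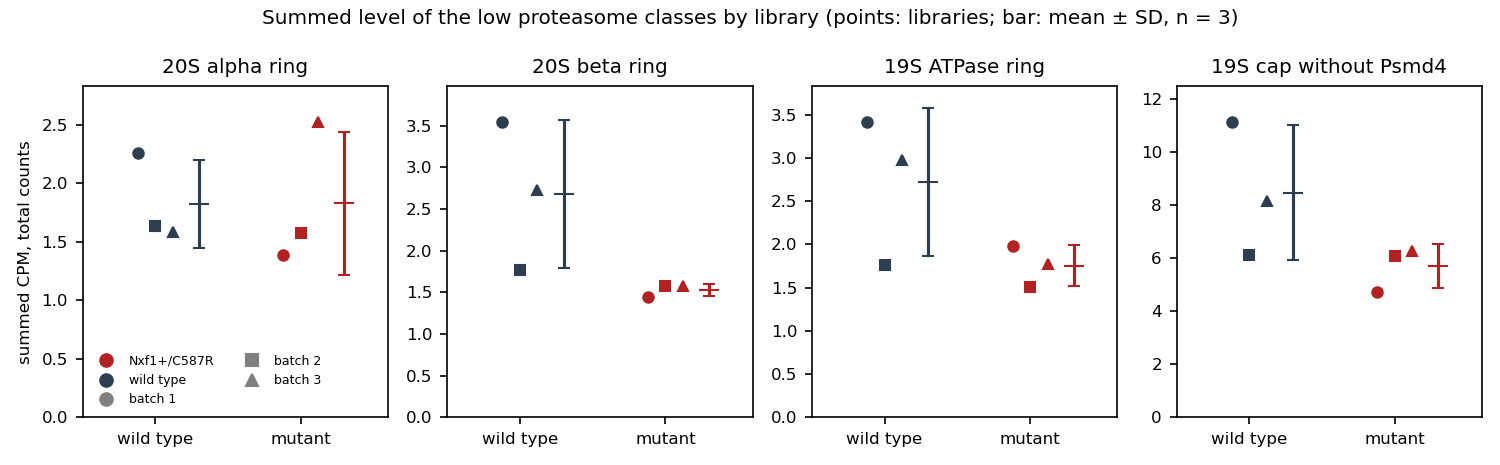
Summed CPM of total counts of the 20S alpha ring, the 20S beta ring, the 19S ATPase ring and the 19S cap without Psmd4 (vertical axes) in each library by genotype, with mean and SD (n = 3 each). The mutant libraries of the beta ring lie together near 1.53 CPM, while the wild-type libraries spread from 1.77 to 3.55 and library 1 is highest there and in both 19S panels.

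Wild-type library 1 stood apart. It held 244 counts of 7 exocrine pancreas markers, all seen there and at 0 in the other 5 libraries, and the highest counts of the 20S core (90) and of the cap without Psmd4 (173). Without that library the cap without Psmd4 was at 6.12 and 8.17 CPM in wild type and 4.75 to 6.29 in the mutants, which overlap as they do with it, and the beta ring at 1.77 and 2.72 against 1.45 to 1.57. Markers of other cells were present too. The 8 hepatocyte markers had 1229 to 2893 counts in the mutants against 13 to 92 in wild type, with Apoa1, Apoa2 and Serpina1b at 0 in every wild-type library and 90 of the 92 in wild-type library 1 from Ttr. The 7 T and NK cell markers had 20 to 31 against 59 to 128, the 6 B cell and MHC class II markers 102 to 129 against 184 to 429, without overlap. The 7 neutrophil and macrophage markers (776 to 1426 against 1250 to 1573) and the 6 platelet markers (48 to 139 against 126 to 240) overlapped. All cells carry proteasomes, and the part of these cells in the counts of the low members was not tested. Erythroid markers filled the libraries, with globins at 88.1% to 89.3% of counts. In such bulk samples fewer cells of a type and less RNA per cell cannot be told apart.

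Genotype was then compared over all genes that passed the filter on low counts (edgeR's quasi-likelihood test, TMM scaling, adjustment over all genes tested). None of the 14 core genes passed that filter, 5 of the 18 cap genes did, and 4 of the 5 activator and inhibitor genes. None of these 9 was called higher or lower at an adjusted p under 0.05, while 7.05% of the 2823 genes tested were (5.99% higher and 1.06% lower). At an unadjusted p under 0.05 there were 2, Psmd4 and Psme3, beside 523 of the 2823 genes tested. DESeq2 called 0 of the 29 members it tested, beside 278 of 6553 genes. It had 1 member at an unadjusted p under 0.05, beside 523 of those genes. The median log2 fold change of the 9 was −0.09, beside −0.06 over all genes tested. The 9 ran from −0.78 for Psmc3 to 0.47 for Psme1. With no filter all 37 were tested and 0 called, beside 464 of 16396 genes (edgeR). At an unadjusted p under 0.05 there were then 5 members, beside 1477 of those genes.

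The scaling set the direction of Psme3 and Psmf1. With TMM, which assumes that most genes do not differ, Psme3 was at 337, 299.7 and 244 CPM in the mutants against 224, 231 and 227 in wild type, so every mutant library was higher. Its log2 fold change was 0.37 (SE 0.16, edgeR adjusted p = 0.207), and 0.59, 0.38 and 0.11 within batches 1, 2 and 3. With CPM of total counts the same gene was at 242, 234 and 259 in the mutants against 275, 257 and 279 in wild type, which overlap, and the mutant was lower in each batch (−0.18, −0.14 and −0.11 on the log2 scale). The log2 fold change was then −0.14 (SE 0.11, adjusted p = 0.334), and the median of all genes moved to −0.53. Without mutant library 3 the TMM value was 0.57 and passed (edgeR adjusted p = 0.0156), beside 244 of 3263 genes called higher and 8 lower. Psme3 did not pass without any other single library (edgeR adjusted p = 0.250 to 0.544). It also did not pass with batch as a term on TMM scaling (edgeR adjusted p = 0.260) or with DESeq2 (adjusted p = 0.165).

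Psmd4 was lower in the mutants under both scalings. It was at 7.78, 8.58 and 8.78 CPM in the mutants against 9.56, 13.9 and 13.7 in wild type with TMM, and at 5.60, 6.69 and 9.29 against 11.7, 15.4 and 16.8 CPM of total counts, without overlap in either. With TMM its log2 fold change was −0.56 (SE 0.20), which missed the threshold (edgeR adjusted p = 0.114). With total counts it was −1.03 (SE 0.24) and passed (edgeR adjusted p = 0.0107), the only member called lower there, beside 8.68% of all genes lower and 4.07% higher. Within the batches the log2 differences were −0.29, −0.68 and −0.64 with TMM and −1.05, −1.19 and −0.85 with total counts. With TMM Psmd4 also passed without wild-type library 1 (−0.71, edgeR adjusted p = 0.0185) and when only genes with a mean count of at least 50 were tested (−0.68, edgeR adjusted p = 0.0237). It did not pass with RLE scaling (adjusted p = 0.186), with no filter (0.422), with DESeq2 (0.732), with batch as a term (0.101) or without any 1 of the other 5 libraries (edgeR adjusted p = 0.261 to 0.479).

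In log2 fold change Psmf1 lay near the middle of all genes tested. It was at 93.6, 97.9 and 78.3 CPM in the mutants against 75.8, 98.8 and 76.9 in wild type with TMM, which overlap, and at 67.4, 76.4 and 82.9 against 93.2, 110.1 and 94.6 CPM of total counts, which do not. Its log2 fold change was 0.10 (SE 0.16, edgeR adjusted p = 0.830) with TMM and −0.39 (SE 0.14, adjusted p = 0.0704) with total counts, and the latter passed with batch as a term (edgeR adjusted p = 0.00654). In that fit Psmd4 and Psmf1 were called lower and 0 of the 9 higher, beside 12.8% and 4.29% of all genes (17.1% in either direction). On TMM scaling with batch as a term 0 of the 9 were called, beside 6.87% of genes higher and 2.13% lower. Psme4 was at 1.37, 2.02 and 2.07 against 2.21, 2.62 and 2.27 CPM with TMM, without overlap, and its log2 fold change was −0.36 (SE 0.28, edgeR adjusted p = 0.559). Of the 9 members tested, 2 were without overlap and lower in the mutants with TMM (11.1% of all genes tested) and 1 was higher (12.3%), and with total counts 5 were lower (31.5%) and 0 higher (5.31%). Over all 37 members on total counts, 8 were lower without overlap and 1, Psma1, was higher, beside 12.5% and 3.95% of the 16396 genes with any count. With TMM 2, Psmd4 and Psme4, were lower and 3, Psma1, Psmb7 and Psme3, higher, beside 5.75% and 6.17%.

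**Figure D3:**
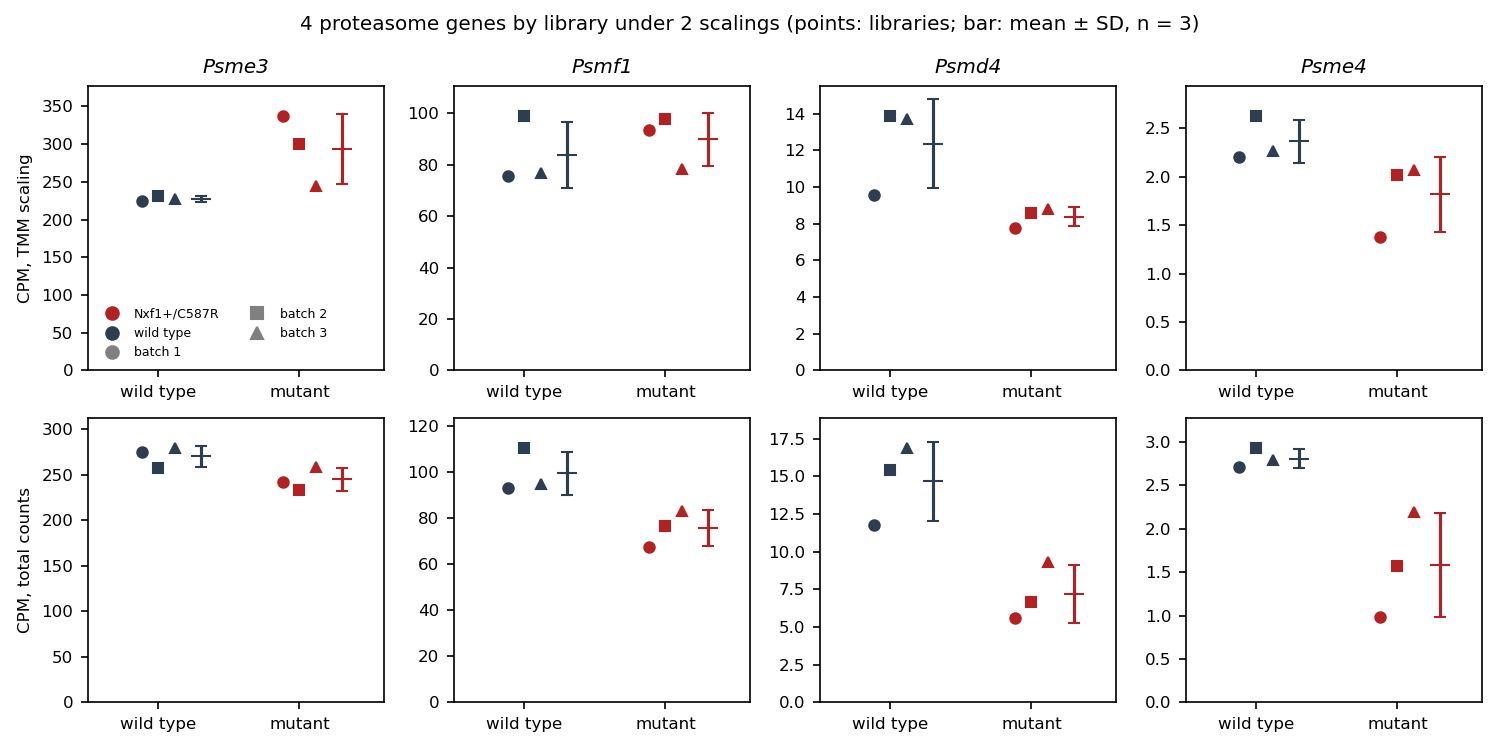
CPM of Psme3, Psmf1, Psmd4 and Psme4 in each library by genotype, with TMM scaling (upper row) and with total counts (lower row), with mean and SD (n = 3 each) and linear axes from 0. Psme3 in the mutants is above wild type in the upper row only, while Psmd4 and Psme4 are below wild type in both rows.

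**Figure D4:**
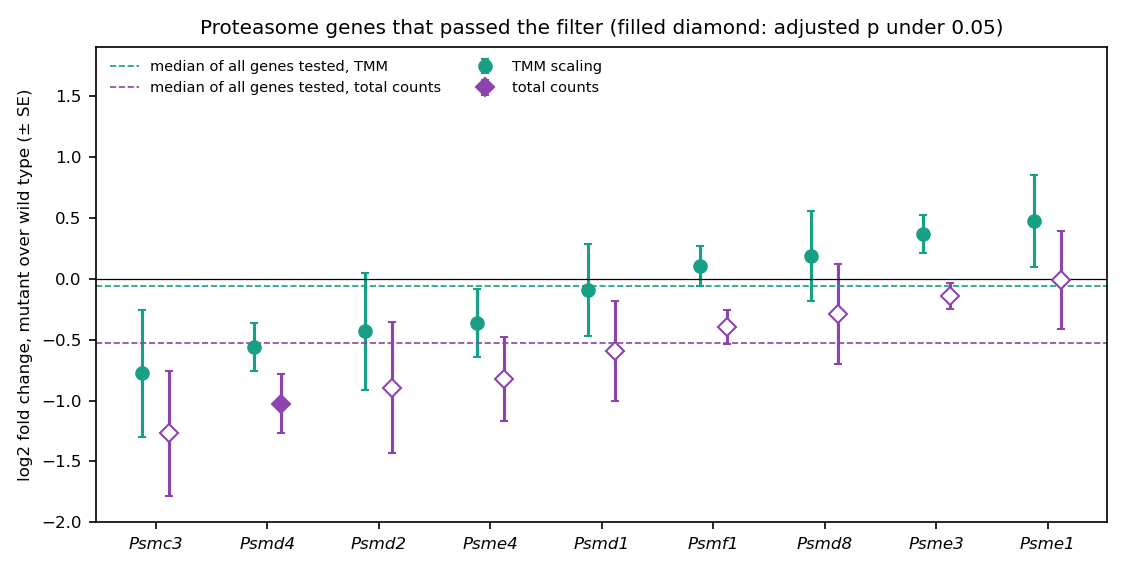
Log2 fold change, mutant over wild type, with its SE for the 9 members that passed the filter, with TMM scaling (circles) and total counts (diamonds, filled where the adjusted p was under 0.05); dashed lines are the medians of all genes tested. Every member moves down with total counts together with the median (−0.06 to −0.53), and only Psmd4 passes.

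Ratios of counts within a library do not depend on scaling, and these pairs were chosen after their values had been seen. The ratio of Psme3 to Psmd4 was 43.3, 35.0 and 27.8 in the mutants against 23.5, 16.7 and 16.6 in wild type, or 35.3 ± 7.72 and 18.9 ± 3.94 (SD, n = 3 each). Every mutant library was above every wild-type library, and so necessarily within each batch. How many other pairs of genes would not overlap was not counted. In log2 fold change on total counts, Psme3 (−0.14) lay above the median of all genes tested (−0.53) and Psmd4 (−1.03) below it. The ratio of Psmf1 to Psmd4 was 10.8 ± 1.65 against 6.89 ± 1.18, also without overlap. That of Psme3 to Psmf1 was 3.26 ± 0.294 against 2.75 ± 0.356, with a gap between 2.96 in wild-type library 1 and 3.06 in mutant library 2. As a share of all member counts, Psme3 took 72.3% ± 2.05 in the mutants against 67.4% ± 2.15 in wild type. Psmd4 took 2.10% ± 0.417 and 3.66% ± 0.641 (SD, n = 3 each), and both genes were without overlap. The share of the 19S cap, which includes Psmd4, was also without overlap. The shares of Psmf1 and of the 20S core overlapped between the groups. How often shares of other genes would not overlap was not counted. In single libraries the Psmd4 share ran from 1.73% (95% Wilson interval 1.40 to 2.13) to 4.14% (3.68 to 4.66).

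**Figure D5:**
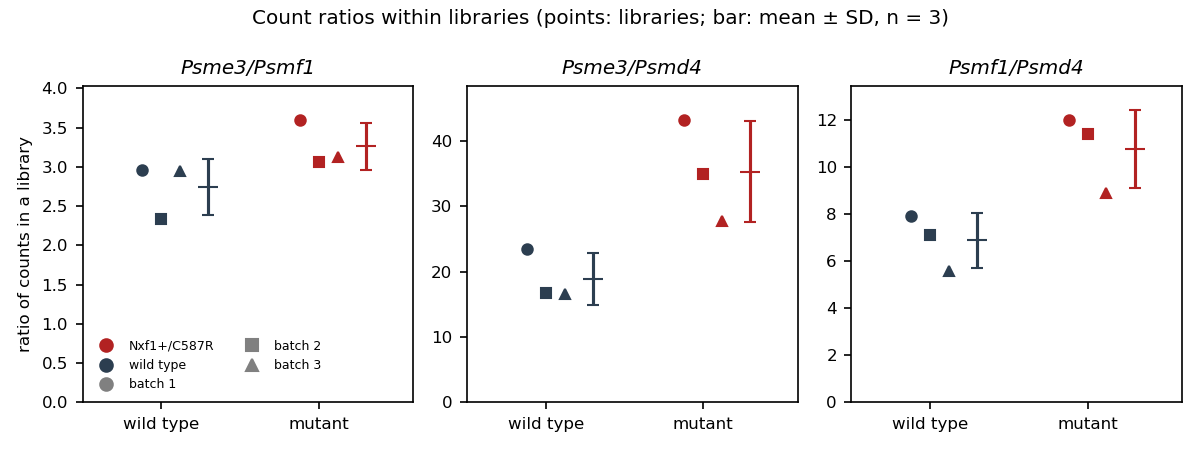
Ratio of counts within each library for Psme3 to Psmf1, Psme3 to Psmd4 and Psmf1 to Psmd4, by genotype, with mean and SD (n = 3 each) and axes from 0. The groups do not overlap in any of the 3 panels, and the mutants are higher in each.

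The other genes of the pathway were as unequal. Of 38 such genes 37 were counted and 12 passed the filter. Ubb, a polyubiquitin gene, had 1818, 1928 and 2088 counts in the mutants against 3325, 3623 and 4089 in wild type, at 111 ± 10.1 and 206 ± 19.6 RPKM (SD, n = 3 each). Its log2 fold change was −0.39 (SE 0.16, edgeR adjusted p = 0.185) with TMM and −0.89 (SE 0.12, edgeR adjusted p = 0.000131) with total counts, and −0.52 (edgeR adjusted p = 0.00665) with TMM when only genes with a mean count of at least 50 were tested.

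Ddi2, listed here among the shuttles that bring ubiquitin-tagged proteins to the cap, had 11, 18 and 12 counts in the mutants against 11, 14 and 7. Ube3c, a proteasome-bound ubiquitin ligase, varied more between mice than between genotypes, with 183, 110 and 65 counts against 136, 55 and 133. Sem1, a small cap subunit, had 14, 14 and 19 against 18, 18 and 24, which is 2.13 ± 0.444 and 2.65 ± 0.390 RPKM (SD, n = 3 each) and above every cap member but Psmd4. The inducible core subunits of the immunoproteasome were also low, with Psmb8 at 5, 8 and 13 counts against 6, 5 and 17 and Psmb9 at 3, 5 and 9 against 10, 2 and 0. The assembly chaperones were low as well, with Pomp at 1, 3 and 3 against 4, 2 and 3 counts and Psmd10 at 4, 3 and 5 against 9, 5 and 5. Nfe2l1 and Nfe2l2, transcription factors known to act on proteasome genes, had 9, 8 and 10 against 30, 17 and 7 and 4, 10 and 8 against 10, 5 and 6 counts. Of the genes of the p97 unfoldase, Ufd1 had 5, 7 and 5 against 11, 2 and 14 and Nploc4 11, 14 and 8 against 18, 15 and 18. Psma8, a testis form of a core subunit, had 1 count in all and Psmb11, a thymus form, had 0.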

How the data were processed

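RNA was measured in purified erythrocytes of 3 mutant and 3 wild-type mice. Per the labels' protocols, purity was assessed by flow cytometry. The deposited files hold raw counts per Entrez gene with gene lengths in bases, 1 file per library, per the file headers. CASAVA 1.8.2, Subread, featureCounts and mm10 are named per the submitters' processing notes. Annotation, strand and multi-mapping settings are not given in the sources used here, so reads of overlapping genes or near-identical copies cannot be told apart.

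Total counts ran from 14636739 to 15790336 per library, of which 1627997 to 1877571 were not globin. Intervals and floors cover counting error only. Symbols came from RefSeq (GRCm38.p6) for 25275 of 27179 genes. Members and lists were chosen with earlier results of these data known. Libraries were compared with edgeR 4.0.16 in R 4.3.3 (quasi-likelihood F test, robust, TMM, filterByExpr, no covariate beside genotype, Benjamini-Hochberg adjustment over all genes tested, called at an adjusted p under 0.05). On data simulated for 2823 genes it recovered 8 of 50 genes changed 1.5-fold, 20 of 50 changed 2-fold and 48 of 50 changed 4-fold, so most small changes are missed. As many genes passed the filter, so the simulation does not cover the 28 members that did not pass. Recovery was not split by count level. The SE was derived from the fold change and its F statistic (absolute log2 value over root F). RPKM used the deposited lengths and total counts. By the rule for named genes, per-library values are given in each class for the 3 highest, the lowest and the 2 members with the smallest p, and for any called. Of the related genes they are given for the 2 highest per list and those called, some of which are not reported here. Psmb6, Psmb7 and Psmd14 values beyond that rule were added for their roles.

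Alternatives were RLE scaling, total counts, removal of globin genes, DESeq2 1.42.0, testing every gene with a count, testing genes whose mean count reached 50, batch as a term and leaving out each library. Total counts with batch as a term and leaving out each batch were added after seeing the data. The batch label pairs 1 mutant with 1 wild-type library. After subtracting group means, libraries of 1 batch correlated at −0.116, −0.0855 and −0.0439. Paaf1, Ahsp and Hbb-bt were not analysed here.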

Additional observations from a re-analysis of the deposited data

How the results depend on the processing

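Of the genes called, the number higher was 169 with TMM. It stayed within 1.5 times of that under RLE scaling, total counts (115), globin removal, batch as a term and leaving out each single library (137 to 244 over these 6 fits). It was 382 with no filter, 66 with a mean count of at least 50 and 271 with DESeq2. The number lower was 30, and 19 with RLE, 245 with total counts, 82 with no filter, 49 with a mean count of at least 50, 7 with DESeq2, 60 with the replicate block, 361 with the block and total counts, 19 without batch 2, 3 without batch 3, and 8 to 77 without single libraries. The share called higher was 84.9% with TMM and 31.9% with total counts.

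Proteasome members called lower were 0 of 9 tested, beside 30 of 2823 genes. With total counts it was 1 of 9 (Psmd4), beside 245 of 2823. With a mean count of at least 50 it was 1 of 3 (Psmd4), beside 49 of 666. Without batch 2 it was 1 of 13 (Psmb4, which did not pass the filter with all libraries, −2.27, edgeR adjusted p = 0.0466), beside 19 of 3148. With the replicate block and total counts it was 2 of 9 (Psmd4 and Psmf1), beside 361 of 2823. Without single libraries it was 0 to 1, with Psmd4 called without wild-type library 1 (1 of 10 members, beside 77 of 3025 genes). Those called higher were 0, and 0 to 1 without single libraries (Psme3 without mutant library 3, 1 of 11 members, beside 244 of 3263 genes). With the replicate block on TMM scaling 0 members were called, as without it.

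Directions turned with total counts for Psme3 (−0.14), Psme1 (−0.012), Psmf1 (−0.39) and Psmd8 (−0.29), and with total counts and the block for the same genes (−0.14, −0.014, −0.40 and −0.32). They also turned for Psmf1 with a mean count of at least 50 (−0.035), and for Psmd1 with DESeq2 (0.018), without batch 1 (0.21) and without batch 3 (0.077). Leaving out 1 library at a time gave −0.22 to 0.17 for Psmd1 (above 0 without mutant library 3 or wild-type library 1), −0.81 to 0.075 for Psmd2 (above 0 without mutant library 1) and −0.018 to 0.44 for Psmd8 (below 0 without mutant library 2), and they turned without batch 1 for Psmd2 (0.14). The change with total counts comes from the TMM factors, which ran from 0.720 to 1.06 for mutant and from 1.11 to 1.23 for wild-type libraries, and for the others the cause was not tested. The 28 members that did not pass the filter had too few counts to be tested there, and 19 of them stayed under 10 counts in every library.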
